A study of Mus musculus with 10 samples.

Results

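The genomic segment described here is the stretch of mouse chromosome 6 from 118 to 136 Mb, as read in peak lists of chromatin immunoprecipitation with sequencing (ChIP-seq) for HA-tagged SET. Its members are all peaks whose start lies in that stretch, 9707 of the 66857 peaks in 8 libraries. The segment was picked because peaks of the SETα overexpression libraries are dense there, so their density and number in it are given as a description with no test. KH2 is a mouse embryonic stem cell line built to carry a doxycycline-inducible transgene, and each group is a KH2 line of its own carrying HA-SETα or HA-SETβ. Addback cells are SET KO, whereas overexpression cells are SET wild type and keep their own SET. Cells of all 4 groups received 1 µg/ml doxycycline for 24 h, were grown on feeder fibroblasts that were depleted before harvest, and were crosslinked with DSG and then formaldehyde. Each group had 2 replicates, and no label says whether they came from separate cultures, so the spread between them may be technical. Line and group cannot be told apart, and with the 2 untreated SET KO samples not analysed here, values below have no background from cells lacking the tag.

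SET is a histone chaperone that binds histone tails and is known to inhibit histone acetyltransferases and the phosphatase PP2A. SETα and SETβ are made from alternative first exons and differ in their first residues. The segment holds the pluripotency locus around Nanog and Dppa3, a gene-rich stretch with Gapdh and Chd4, and the clusters of killer cell lectin-like, C-type lectin-like, vomeronasal and bitter taste receptor genes.

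Starts of genes in the segment show the kinds of places where peaks were found, and 6 of them are printed because the results below turn on them. Bms1, Vamp1 and Zfp384 carry the strongest regions shared by all addback libraries, and both SETα overexpression libraries have a peak there too. The Grcc10 window overlaps a region of all 4 addback libraries that had a peak in 1 of the SETα overexpression libraries, and the windows of Slc6a13 and Kap overlap regions with a peak in both SETα overexpression libraries and in no addback library. The windows are RefSeq promoter windows of 300 bases on GRCm38.p6, written 5′ to 3′ along the gene. They lie at chr6:118419368-118419667 on the minus strand for Bms1, chr6:125215331-125215630 on the plus strand for Vamp1, chr6:125008876-125009175 on the plus strand for Zfp384, chr6:124741020-124741319 on the minus strand for Grcc10, chr6:121300038-121300337 on the plus strand for Slc6a13 and chr6:133853618-133853917 on the minus strand for Kap. Capitals mark matches to any of 4 motifs on either strand.
Bms1: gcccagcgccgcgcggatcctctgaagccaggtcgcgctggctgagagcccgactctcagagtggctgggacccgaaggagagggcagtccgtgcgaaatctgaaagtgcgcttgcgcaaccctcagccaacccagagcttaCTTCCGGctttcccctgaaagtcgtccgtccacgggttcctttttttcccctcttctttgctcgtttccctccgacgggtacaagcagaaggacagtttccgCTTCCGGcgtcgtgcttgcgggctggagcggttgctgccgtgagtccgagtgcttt
Vamp1: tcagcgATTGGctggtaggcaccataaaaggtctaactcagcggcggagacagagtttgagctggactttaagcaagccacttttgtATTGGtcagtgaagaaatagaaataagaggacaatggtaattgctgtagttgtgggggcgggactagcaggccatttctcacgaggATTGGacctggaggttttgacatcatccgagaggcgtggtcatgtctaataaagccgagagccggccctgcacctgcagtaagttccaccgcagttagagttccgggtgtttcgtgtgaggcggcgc
Zfp384: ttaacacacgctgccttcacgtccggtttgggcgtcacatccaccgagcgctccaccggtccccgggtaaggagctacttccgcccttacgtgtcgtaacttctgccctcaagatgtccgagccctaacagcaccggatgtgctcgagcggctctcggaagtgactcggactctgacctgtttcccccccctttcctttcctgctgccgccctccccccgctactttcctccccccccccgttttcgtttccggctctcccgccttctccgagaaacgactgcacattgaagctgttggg
Grcc10: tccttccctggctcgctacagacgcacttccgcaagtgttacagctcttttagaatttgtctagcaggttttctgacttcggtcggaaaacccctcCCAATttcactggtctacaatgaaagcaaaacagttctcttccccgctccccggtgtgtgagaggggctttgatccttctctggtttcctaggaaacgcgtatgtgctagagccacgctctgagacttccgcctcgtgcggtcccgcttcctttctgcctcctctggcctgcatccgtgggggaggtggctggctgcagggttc
Slc6a13: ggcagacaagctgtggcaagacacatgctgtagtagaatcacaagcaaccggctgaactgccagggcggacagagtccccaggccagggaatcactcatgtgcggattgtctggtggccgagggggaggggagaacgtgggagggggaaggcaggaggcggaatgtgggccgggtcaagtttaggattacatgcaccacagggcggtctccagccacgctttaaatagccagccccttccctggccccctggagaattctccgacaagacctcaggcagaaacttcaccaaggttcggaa
Kap: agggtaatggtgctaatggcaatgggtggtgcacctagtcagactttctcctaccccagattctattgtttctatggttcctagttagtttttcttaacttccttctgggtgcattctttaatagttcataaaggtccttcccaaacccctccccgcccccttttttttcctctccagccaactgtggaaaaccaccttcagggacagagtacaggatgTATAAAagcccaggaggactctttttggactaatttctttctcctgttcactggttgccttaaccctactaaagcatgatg
The motifs searched were the ETS core CCGGAAG, the CCAAT box CCAAT, the E box CACGTG and the TATA box TATAAA. Capitals in Bms1 are ETS cores, those in Vamp1 and Grcc10 CCAAT boxes, and those in Kap a TATA box, each read on the strand where it matched. The windows of Zfp384 and Slc6a13 hold none of these letters.

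The ETS core was found in 8 of the 26 segment promoters that overlap a region of all 4 addback libraries (30.8%), against 27 of all 358 segment promoters (7.54%) and 8.72% of the 29120 promoters of the analysed chromosomes. Of the 76 segment promoters with a SETα overexpression region and no such addback region, 8 held it (10.5%). Over all analysed chromosomes, 43.9% of the 902 promoters with a region of all 4 addback libraries held the ETS core. The TATA box was in 0 of those 26 and 6 of those 76 promoters, against 20.1% of all segment promoters and 13.8% of all promoters. CCAAT was in 5 of the 26 and 22 of the 76, and in 37.4% of all promoters. The E box was in 3 of each set and in 7.02% of all promoters.

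Promoters with addback regions were also richer in G+C. The median G+C share was 63.7% in the 26 addback promoters, 55.0% in the 76 with a SETα overexpression region and no region of all 4 addback libraries, and 48.0% in the 256 with neither. Median CpG dinucleotides per window were 26.5, 9.5 and 4 in the same order, and 7 over all promoters. The promoter of Bms1 has 27 CpG and that of Kap has 1.

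Peaks of the SETα overexpression libraries were spread along nearly the whole segment, and covered 7.29% and 11.2% of its bases. Replicate 1 had 3337 and replicate 2 had 4777 peaks in it, 98.6% and 97.5% of each library's chromosome 6 peaks. SETα addback libraries had 558 and 590, SETβ addback libraries 77 and 194, and SETβ overexpression libraries 49 and 125. Both overexpression groups keep their own SET, and SETβ overexpression replicate 1 had the fewest peaks of the 8 libraries here.

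Joining peaks less than 150 kb apart gave a single run of 3335 peaks in replicate 1 and 4776 in replicate 2, each 17.2 Mb long. The run began at chr6:118381320 in replicate 1, and replicate 2 began 1717 bp away. It ended at chr6:135562736 in replicate 1, and replicate 2 ended 3078 bp away. The left edge lies 2.06 kb before Bms1, a GTPase of ribosome assembly, and the receptor tyrosine kinase gene Ret lies 184 kb to its left. At the right edge, Emp1 ends 183 kb before it and Grin2b, which encodes an NMDA receptor subunit, starts 147 kb after it. Beyond the edges the next peak lay 166 and 168 kb to the left and 2099 and 907 kb to the right.

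Just inside the segment's limits, the first Mb held 46 and 56 SETα overexpression peaks and the last Mb 113 and 156. Just outside, the Mb before the segment held 1 in each replicate, and the Mb after it held 0 and 3. Inside the run, 329 and 341 of 343 windows of 50 kb held a SETα overexpression peak. SETα addback reached 160 and 151 of these windows, SETβ addback 55 and 109, and SETβ overexpression 26 and 51. In none of these other libraries did a single run of peaks span the segment. Around its middle the same joining rule gave them runs of at most 1.06 Mb, and their runs elsewhere in the segment were not measured.

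**Figure D1:**
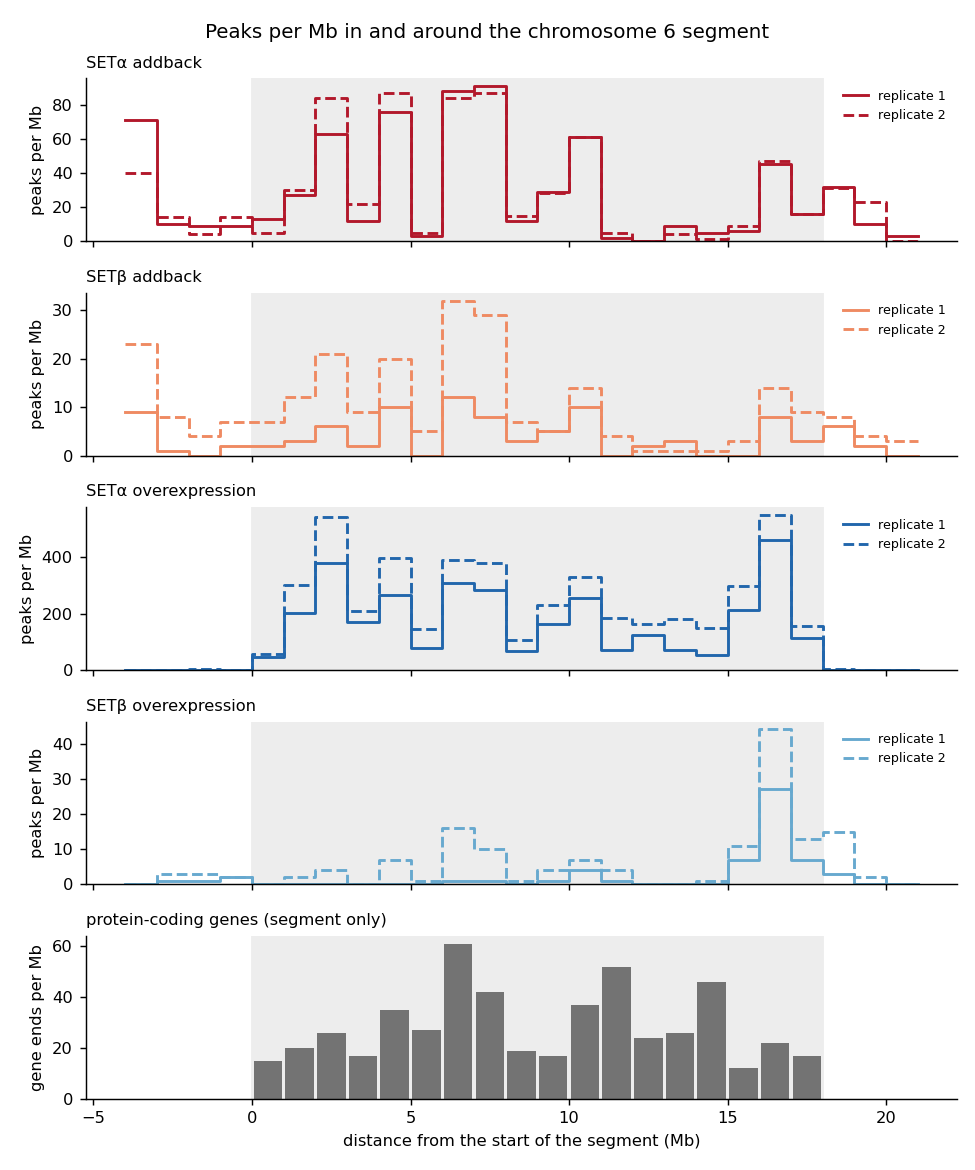
Peaks per Mb (vertical axis, scale differs between panels) against distance from the start of the segment (shaded), for each replicate of the 4 groups, with protein-coding gene ends per Mb at the bottom. SETα overexpression falls from 113 and 156 peaks in the last Mb to 0 and 3 in the next, while SETα addback passes both limits without such a step.

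Per Mb, the segment was denser than the rest of chromosome 6 in every library analysed. The ratio was 497 and 281 in SETα overexpression, a mean log2 ratio of 8.55 ± 0.58 (SD, n = 2). It was 3.77 and 5.22 in SETα addback, 4.69 and 3.64 in SETβ addback and 6.63 and 6.57 in SETβ overexpression. The segment is also richer in genes, with 14.3 protein-coding genes per Mb against 6.60 on the rest of the chromosome. In SETα minus SETβ addback, the log2 ratio of segment peaks to other chromosome 6 peaks differed by 0.10, with a pooled SD of 0.30 (exact two-sided permutation test, p = 0.667, smallest possible 0.333). Leaving out SETα addback replicate 2 or SETβ addback replicate 2 turned that difference to −0.13 and −0.080.

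The SETα overexpression peaks of the segment had a median fold close to that of the addback libraries but no leading peaks as strong as theirs. Their median fold enrichment, the authors' ratio of the signal at the summit to the local background, was 2.74 and 2.85, against 2.69 and 2.92 in SETα addback, 2.75 and 2.77 in SETβ addback, 2.61 and 2.70 in SETβ overexpression and 2.78 in both SETα overexpression libraries at other positions. The highest was 5.30 and 6.03 with SETα overexpression and 3.95 and 3.79 with SETβ overexpression. The highest −log10 p, the authors' own value per peak, was 12.6 and 16.0, and 6.66 and 7.45 with SETβ overexpression. Addback libraries had fewer peaks in the segment, and their leading peaks were far stronger, with highest −log10 p of 103.3, 101.8, 111.7 and 73.9. A −log10 q of at least 2 was reached by 65 and 556 SETα overexpression peaks, 1.95% and 11.6% of those in the segment, against 7.62% and 9.21% of those at other positions. It was reached by 187 and 201 SETα addback peaks of the segment, 33.5% and 34.1% (19.96% and 35.1% at other positions), and by 19 and 32 SETβ addback peaks, 24.7% and 16.5% (36.8% and 11.3%). In SETβ overexpression it was reached by 0 and 5 peaks, 0% and 4.00% (6.57% and 7.18%).

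Peaks that recurred in both SETα overexpression libraries were next read against what each covered. Of 3337 replicate 1 peaks, 1953 overlapped a replicate 2 peak by at least 1 bp (58.5%, Wilson 95% interval 56.8% to 60.2%), against 55.2% of that whole list, most of which is the segment itself, and 47.7% outside the segment. Of 4777 replicate 2 peaks, 1917 overlapped one of replicate 1 (40.1%), against 33.9% of that whole list and 23.7% outside the segment. A replicate 1 summit lay inside a replicate 2 peak for 43.7% of peaks, while replicate 2 peaks covered 11.2% of the segment. Outside the segment the same share was 42.3%, so for replicate 1 summits it hardly differed there. Replicate 2 summits lay inside a replicate 1 peak for 26.2% of peaks in the segment and 19.9% outside it. Intervals cover counting error only.

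Stronger peaks recurred more often. With replicate 1 peaks split into 4 classes by −log10 p, 47.2% of the weakest class recurred and 77.6% of the strongest. In replicate 2 the shares were 27.8% and 64.2%. Merging the peaks gave 1704 recurrent regions in the segment, 94.7 per Mb, against 669 on all other analysed positions. The 1704 had a median width of 602 bp, from 201 to 10215 bp, and together covered 7.20% of the segment. With only peaks of a −log10 q (the adjusted p) of at least 2, 45 regions of the segment recurred. In the authors' lists of peaks that passed a replicate comparison by irreproducible discovery rate, 34 of the 127 SETα overexpression peaks lay in the segment (26.8%), all 34 on a recurrent region. The same lists held 31 of 530 SETα addback peaks, 11 of 485 SETβ addback peaks and 1 of 101 SETβ overexpression peaks there.

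**Figure D2:**
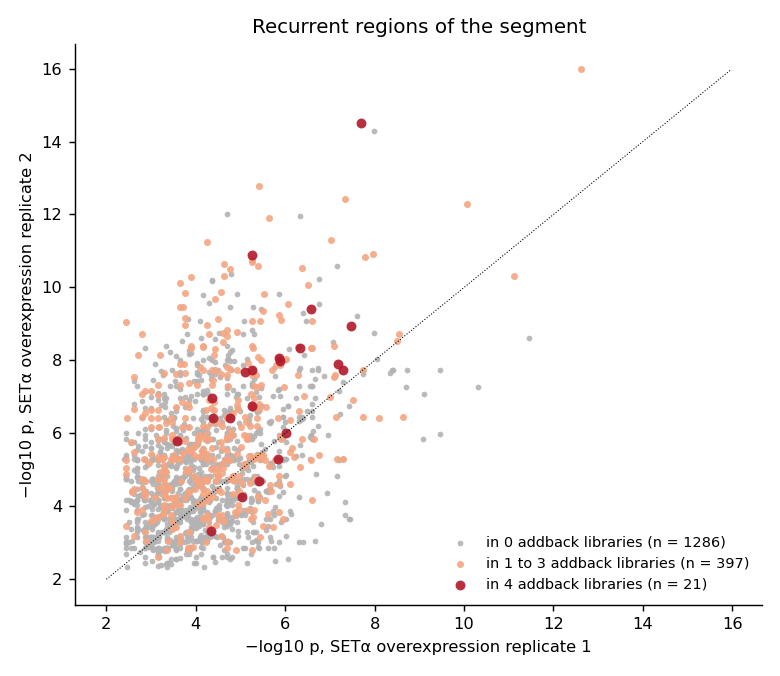
Each point is 1 of the 1704 recurrent regions, with the authors' −log10 p in SETα overexpression replicate 1 (horizontal) and replicate 2 (vertical), coloured by how many addback libraries have a peak there, and the dotted line marks equal values. The 21 regions found in 4 addback libraries lie among the others, and the point with the highest smaller value is at 12.6 and 16.0.

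The 10 recurrent regions with the highest smaller −log10 p were led by a gene-poor stretch beside Etv6. The first, at chr6:133959386-133966633, had a −log10 p of 12.6 and 16.0 and a fold of 5.30 and 5.66 in the SETα overexpression libraries. SETβ overexpression had peaks there too, with folds of 2.40 and 3.32, and SETα addback replicate 1 one of 2.59. It lies in no gene, 28800 bp from the end of the pseudogene Gm8956. Regions at chr6:133966913-133969787 and chr6:133981424-133988663 follow in the same stretch. At the latter the fold was 4.43 and 4.96 with SETα overexpression, 2.91 and 2.87 with SETβ overexpression, 2.49 and 2.63 in SETα addback and 2.92 in SETβ addback replicate 2, so 7 of the 8 libraries had a peak there. Another lies at chr6:133875183-133877613, 22705 bp from Kap, with 4.11 and 5.93, and SETβ overexpression replicate 1 had 3.14 there.

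Other leading regions lay in or near genes. At chr6:135010967-135012392, in the RNA helicase gene Ddx47, the fold was 4.30 and 4.26 with SETα overexpression, 3.56 and 3.48 with SETβ overexpression, 2.98 and 3.44 in SETα addback, and neither SETβ addback library had a peak. The Ddx47 region thus had a peak in 6 of the 8 libraries. At chr6:122703525-122705070, 3034 bp from an end of Nanog, the homeobox gene that maintains pluripotency, the fold was 4.02 and 4.18. Peaks there were also listed in SETα addback replicate 2 (2.97), SETβ addback replicate 1 (2.79) and SETβ overexpression replicate 2 (2.99). No group but SETα overexpression had it in both replicates.

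Regions inside Etv6, which encodes an ETS family repressor, at chr6:134047833-134048672 and chr6:134116103-134119735, had folds of 3.94 and 3.80, and of 4.25 and 4.48. No addback library had a peak at either. The region at chr6:125572491-125573292 lies inside Vwf, the gene of a clotting protein of blood vessel lining, with a fold of 4.03 and 4.84, and peaks were also listed in SETα addback replicate 1 (2.63) and SETβ overexpression replicate 2 (2.69). The region at chr6:130082768-130083357 lies in Klra11-ps, a pseudogene of the killer cell lectin-like receptor cluster, with a fold of 5.19 and 4.79, and SETβ addback replicate 2 had 3.22. Members of that cluster are near-identical copies, so reads may be shared between them, and the position is uncertain.

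Recurrent regions lay in gene bodies and at gene ends somewhat more often than the cover of each. Of 1704 summits, 908 lay inside a protein-coding gene (53.3%), and such genes cover 44.5% of the segment. At most 1 kb from a gene's start or end lay 303 (17.8%, Wilson 95% interval 16.0% to 19.7%), for windows that cover 9.85% of the segment, and against 7.77% of recurrent regions at other positions. The share in the segment was thus above that at other positions, while it was lower than in the other groups: 46.5% of 217 regions recurring in SETα addback, 64.7% of 34 in SETβ addback and 31.0% of 29 in SETβ overexpression. The cover of gene-end windows at other positions was not computed, and the segment has more genes per Mb than the rest of chromosome 6.

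Over all segment peaks, the share of summits within 1 kb of a gene end was 15.0% and 13.9% in SETα overexpression and 30.6% and 33.6% in SETβ overexpression. It was 34.8% and 31.4% in SETα addback and 54.5% and 33.0% in SETβ addback. SETα overexpression was the lowest group and did not overlap the other 3. The SET KO minus SET wild type difference was 15.2 percentage points, with a pooled SD of 7.80 (exact two-sided permutation test, p = 0.111, smallest possible 0.0556). It was 18.6 points with SETα and 11.7 with SETβ, and whether these differ was not tested. SETα minus SETβ was −14.2 points (exact two-sided permutation test, p = 0.111, smallest possible 0.0556), −10.7 in the SET KO lines and −17.7 in the SET wild type lines. With 2 libraries a group, no smaller p was possible than 0.0556. The segment was chosen on the density of SETα overexpression peaks, and both differences include those peaks, so no conclusion is drawn from these tests. Without SETβ addback replicate 1, the highest library, the differences were 9.76 and −8.81 points.

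**Figure D3:**
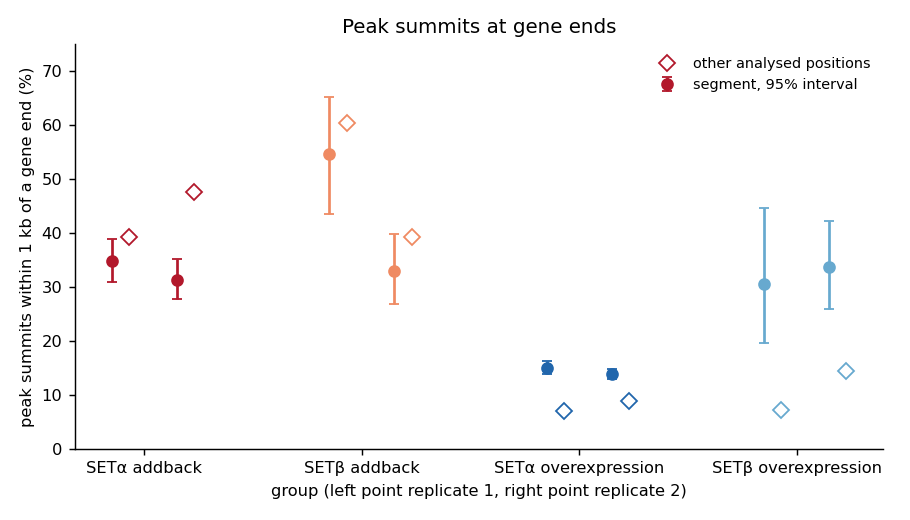
Share of peak summits at most 1 kb from a gene's start or end, in percent, per library: filled points are the segment with Wilson 95% intervals, open diamonds all other analysed positions. SETα overexpression lies at 15.0% and 13.9% in the segment, and every overexpression library is higher in the segment than elsewhere while every addback library is lower.

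At other positions the shares were 39.3% and 47.6% in SETα addback, 60.4% and 39.2% in SETβ addback, 7.07% and 8.87% in SETα overexpression and 7.11% and 14.4% in SETβ overexpression. Within the segment, each overexpression library therefore had a larger share at gene ends than outside it, and each addback library a smaller one. The 2 kinds of library were closer to each other inside the segment than outside it. The cover of gene-end windows outside the segment was not computed, so these shares are not set against it.

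Of the segment's 258 protein-coding genes, 183 had a recurrent SETα overexpression region in their body (70.9%), against 1.6% of all 19235 genes analysed and 0.653% of those outside the segment. With only peaks of a −log10 q of at least 2 the share of segment genes was 5.81%. Because the segment was chosen on these peaks, nothing is read from that contrast. A recurrent region within 1 kb of a gene end was found at 145 of them, with 0.816% over all genes. Any SETα overexpression peak was present in 230. Longer genes had one more often: 44.6% of the 65 shortest had a recurrent region, then 70.3%, 81.2% and 87.7% of the next 3 length classes. The median density did not rise alike, and was 0, 11.9, 10.2 and 9.28 regions per 100 kb of gene from the shortest to the longest class.

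The gene with the most recurrent regions was Etv6, with 91 over its 234459 bp, or 38.8 per 100 kb. Its body held 158 and 163 SETα overexpression peaks, 4 and 6 with SETβ overexpression, 5 and 4 in SETα addback and 1 and 4 in SETβ addback. Mical3, an actin-oxidising enzyme gene, followed with 44 regions, then the Wnt ligand gene Wnt5b with 28 and the chromatin remodelling factor gene Cecr2 with 27. Erc1, which encodes a scaffold of secretion sites, and Slc2a3, a glucose transporter gene, had 26 each. The glycosyltransferase gene B4galnt3 had 25 and the lysosome positioning gene Borcs5 had 20. The MAP kinase phosphatase gene Dusp16, the Wnt co-receptor gene Lrp6 and the gene Plekhg6 had 17 each.

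These genes were not equally dense. Erc1 had 9.37 regions per 100 kb and Mical3 18.2, while Slc2a3 had 34.9 and Plekhg6, the densest of them, 89.6. The longest gene, the calcium channel gene Cacna1c, had 13 regions over 610145 bp, or 2.13 per 100 kb. Over all segment genes the figure was 11.7 per 100 kb.

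Genes without any SETα overexpression peak numbered 28 (10.9%), and their median length was 957 bp against 17156 bp for those with a peak. The longest were Grin2b, Rasgef1a, Ret and Csgalnact2, which are the only 4 genes of the segment outside the run of peaks. Inside the run, 24 of 254 genes had none, and 19 of them were bitter taste receptor genes. The longest of the 24 was the natural killer receptor gene Klrc2, at 11136 bp, followed by Gm5885, Gm8882, Prh1, A630073D07Rik and Tas2r102, of 1044 to 3574 bp. All 102 genes of the run longer than 20 kb had a peak in at least 1 of the 2 libraries.

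Genes of the pluripotency locus, the glycolysis and housekeeping genes, and the chromatin, cell cycle and DNA repair genes had a recurrent region in the body in 90.0% to 100% of their members. The share was 70.9% over all segment genes and 83.6% (148 of 177) over those outside the 4 receptor families (vomeronasal, C-type lectin-like, killer cell lectin-like and bitter taste). These lists were put together by hand with earlier results known and got no test, and expression was not measured here. In the pluripotency locus all 5 of the 5 genes described had one: Nanog, Dppa3, the TGF-β ligand gene Gdf3, Slc2a3, and the RNA editing enzyme gene Apobec1. Nanog held 2 and 5 SETα overexpression peaks, 3 and 2 in SETα addback, and 0 in both libraries of SETβ addback and of SETβ overexpression. Slc2a3 held 41 and 55, then 17 and 17 in SETα addback, 1 and 4 in SETβ addback and 0 and 0 in SETβ overexpression. Per length, these genes had 31.2 regions per 100 kb of gene. None of the 5 had a region of all 4 addback libraries within 1 kb of an end.

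The chromatin, cell cycle and DNA repair genes all had a region too, 12 of 12, with 27.7 per 100 kb, and Etv6 gave 91 of their 136 regions. Chd4, the ATPase of the NuRD complex, had 5, the transcription factor gene Tead4 had 15, the cyclin gene Ccnd2 had 6, and Cdkn1b, which encodes the cell cycle inhibitor p27, had 3. Of these 12 genes, 6 also had a region of all 4 addback libraries at an end: Rad52, Zfp384, Chd4, Tead4, Etv6 and Cdkn1b. Of all 258 segment genes, 31 had one (12.0%). Among glycolysis and housekeeping genes, 9 of 10 had a region in the body and 10 of 10 at an end, beside 145 of all 258 genes at an end (56.2%). Gapdh, the glycolytic dehydrogenase, had 4. Gapdh itself had 3 and 2 SETα addback peaks, 0 and 1 in SETβ addback, 4 and 5 in SETα overexpression and 0 in both SETβ overexpression libraries.

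Groups of tissue-restricted genes varied more. Ion channel genes had a region in 4 of 7, at 1.67 per 100 kb. Complement and protease inhibitor genes had one in 7 of 8, at 6.78 per 100 kb, and surface genes of immune cells in 5 of 7, at 23.3 per 100 kb. A2m, a protease trap of blood plasma, had 3 regions and no peak in any addback library. Vomeronasal receptor genes had one in 7 of 9, C-type lectin-like genes in 16 of 22 and killer cell lectin-like receptors in 11 of 26. Bitter taste receptor genes had one in 1 of 24, Tas2r117. These 24 genes are short, 22.8 kb in all, and at 4.39 regions per 100 kb they were not below the 3.24 of the killer cell receptors. Copies within those families are similar, so their counts are uncertain.

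**Figure D4:**
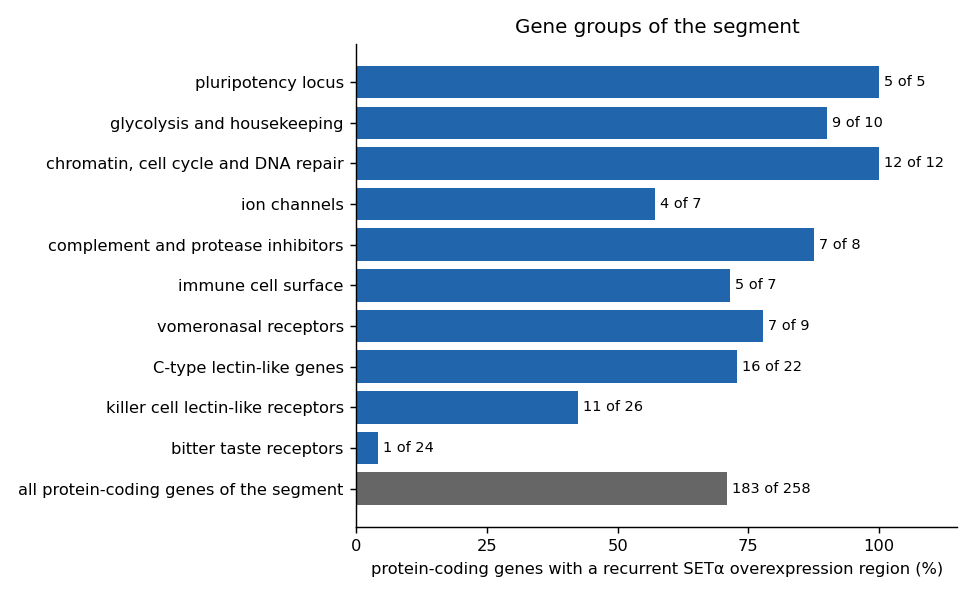
Share of protein-coding genes, in percent, whose body overlaps a recurrent SETα overexpression region, for 10 gene groups of the segment (blue) and all 258 protein-coding genes of it (grey), with the counts beside each bar. Bars run from 1 of 24 bitter taste receptor genes to 5 of 5 genes of the pluripotency locus.

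Addback libraries were called separately and had no part in choosing the segment. Merging them gave 34 segment regions with a peak in all 4, of 954 on all analysed chromosomes. Summits of 25 of the 34 lay within 1 kb of a gene end (73.5%), against 79.3% of those elsewhere. Of the segment's protein-coding genes, 31 had such a region at an end (12.0%), against 4.75% of all genes, and all 31 were outside the 4 receptor families. In their body, 30 had one, against 5.01% of all genes. Gene-rich stretches of other chromosomes were not matched for this comparison.

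The strongest was at Bms1, chr6:118418999-118420248, with a fold of 14.0 and 17.0 in SETα addback, 16.2 and 13.4 in SETβ addback, and 3.18 and 4.04 in SETα overexpression. Vamp1, which encodes a synaptic vesicle fusion protein, followed at chr6:125215251-125216109 with 10.1 and 15.1, then 11.4 and 8.76, and 3.50 and 3.37 with SETα overexpression. At Zfp384, a zinc finger factor gene, chr6:125008206-125009915, the folds were 8.67 and 11.8, then 6.96 and 7.02, and 3.08 and 2.94. No SETβ overexpression library had a peak at any of these 3. All 3 are the promoters printed above.

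The next were the shared start of Ccdc77 and the histone demethylase gene Kdm5a, a position 11621 bp from the pseudogene Gm7308, the neuronal enolase gene Eno2, and the ribosome assembly genes Emg1 and Nop2. A region inside Parp11, a mono-ADP-ribosyltransferase gene, had folds from 4.50 to 6.16 in the addback libraries. The tenth, in Grcc10, had folds from 3.65 to 4.30 there, 2.73 in SETα overexpression replicate 2 and 2.70 in SETβ overexpression replicate 2. The other two libraries of the overexpression groups had no peak on that region, although each SETα overexpression library had 2 peaks over the Grcc10 gene body. The addback folds at these 10 regions were higher than those of SETα overexpression wherever both were listed. The 10 were chosen on their addback −log10 p, so nothing is read from that contrast.

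Read from the addback side, most shared regions overlapped a recurrent SETα overexpression region, 28 of the 34 (82.4%), against 4.51% of all 954 and 1.63% of those outside the segment. The segment was chosen on the SETα overexpression peaks, so nothing is read from that contrast. A peak of SETα overexpression replicate 1 was at 31 of them and of replicate 2 at 33, while SETβ overexpression replicates had 2 and 6. Among the 28 were Cdkn1b, the apoptosis gene Bid, the Polycomb gene Phc1, Rad52, Wnk1, which encodes a kinase of ion transport, and the T cell inhibitory receptor gene Lag3. The regions at Grcc10, at M6pr and near Gm7308 were among the 6 that overlapped no recurrent region. By summits instead of any overlap, 10 of the 34 summits (29.4%) lay inside a peak of SETα overexpression replicate 1, which covers 7.29% of the segment. In replicate 2 it was 13 (38.2%) for a cover of 11.2%, and 12 (35.3%) lay inside a recurrent region, for 7.20%.

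Read from the overexpression side, most regions had no addback peak. Of 1704 recurrent regions, 418 overlapped a peak of any addback library (24.5%, Wilson 95% interval 22.5% to 26.6%), against 26.2% of all 2373 such regions and 30.5% of those outside the segment. Counting only summits inside an addback peak gave 12.7%, and only addback peaks with a −log10 q of at least 2 gave 11.3%. The share was 16.4% and 17.7% with the SETα addback libraries (18.4% and 16.4% of all such regions) and 2.52% and 4.87% with the SETβ addback libraries (3.16% and 5.65%). Of the 1704, 1286 met 0 addback libraries (75.5%), 216 met 1, 137 met 2, 44 met 3 and 21 met 4. The 21 are recurrent regions that touch a peak of each of the 4 libraries, whereas the 28 above are merged addback regions that touch a recurrent region.

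Summits inside an addback peak were more frequent than the cover of those peaks. With SETα addback replicate 1 they were 7.39% of the 1704 for a cover of 1.24% of the segment, and with replicate 2 they were 7.98% for 1.41%. SETβ addback gave 0.822% for 0.153% and 1.58% for 0.340%. In the other direction, 52.5%, 53.9%, 55.8% and 43.8% of the addback peaks of the segment touched a recurrent region, and 79.6% and 76.8% of the SETβ overexpression peaks did. Their summits lay inside one in 37.6%, 39.0%, 32.5% and 30.4% of addback peaks and in 75.5% and 72.0% of SETβ overexpression peaks, and recurrent regions cover 7.20% of the segment.

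Regions met in addback lay nearer to genes. Of the 1286 met in 0 addback libraries, 12.7% had a summit within 1 kb of a gene end, of the 397 met in 1 to 3 it was 32.5%, and of the 21 met in 4 it was 11 regions, 52.4%. Their median smaller −log10 p with SETα overexpression was 3.65, 4.20 and 5.27, and their median width 552, 745 and 818 bp, in the same order.

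Along the segment, the ranks of peak numbers followed gene bodies more closely than gene ends in bins of 1 Mb, and the order was not the same by other measures. Over 18 bins of 1 Mb, Spearman's rho between protein-coding gene ends and peaks was 0.17 and 0.28 in SETα overexpression, 0.18 and 0.19 in SETα addback, 0.27 and 0.24 in SETβ addback and −0.041 and 0.19 in SETβ overexpression. With the bases covered by protein-coding genes it was 0.44 and 0.42, 0.65 and 0.62, 0.49 and 0.74, and 0.12 and 0.22. Bins share library and chromosome, so these values are a description. In bins of 0.5 Mb, SETα overexpression replicate 2 and both SETβ overexpression libraries had the higher rho with gene ends. By Pearson's r in these smaller bins, the 4 addback libraries followed gene ends more (0.62, 0.58, 0.53 and 0.63) than gene bases (0.33, 0.38, 0.25 and 0.41). Bin profiles of SETα addback and SETα overexpression were alike, with rho from 0.72 to 0.82 over the 4 pairs of libraries, and SETβ addback gave nearly the same with SETα overexpression, from 0.69 to 0.74.

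The bins that set the pattern can be named. The most gene-rich, at 124 Mb, had 61 gene ends and 309 and 390 SETα overexpression peaks, and SETα addback had 88 and 84 there. The bin at 132 Mb, with the bitter taste receptor cluster, had 46 gene ends but 38.4 kb of genes, and held 54 and 148 SETα overexpression peaks and 5 and 1 in SETα addback. The bin at 130 Mb, with killer cell receptor genes, held 125 and 162 SETα overexpression peaks and 0 in both SETα addback libraries. The bin at 133 Mb had 12 gene ends and 213 and 300 SETα overexpression peaks.

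The last 3 Mb of the segment stood apart with SETβ overexpression. They are 16.7% of its length and held 41 of 49 and 68 of 125 of its SETβ overexpression peaks, 83.7% and 54.4%. SETα overexpression had 23.6% and 21.1% of its segment peaks there, SETα addback 12.0% and 12.2% and SETβ addback 14.3% and 13.4%. This stretch was singled out after its values were seen. The bin at 134 Mb, with Etv6, was the highest for SETα overexpression (461 and 551) and for SETβ overexpression (27 and 44). Of 10 leading regions that recurred in SETβ overexpression, 9 lay in these 3 Mb, beside Gm46977, Ddx47, Dusp16, Cdkn1b, its neighbouring lncRNA gene Lockd, and Borcs5.

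The deposited fold and −log10 p of each peak were then solved together for the pileup, the number of overlapping fragments at the summit, and for the local background the authors' peak caller expected there. The solution came out at whole reads, within 0.02, for all peaks of the 8 lists, and the 86.9% to 99.4% of peaks with a single solution were used. Each local background is given as a multiple of the lowest, genome-wide level of its library. In SETα addback its median in the segment was 2.07 and 2.10, and at other positions 1.00 in both. In SETβ addback it was 1.47 and 1.46 in the segment and 1.07 and 1.00 elsewhere, in SETα overexpression 1.26 in both and 1.15 and 1.12, and in SETβ overexpression 1.26 and 1.31 and 1.15 in both.

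The raised background reached over the whole segment in SETα addback. In 9 bins of 2 Mb its median lay from 1.72 to 2.18 in replicate 1 and from 1.78 to 2.23 in replicate 2, and in the bin after the segment it was 1.24 in replicate 1. Over 18 chromosomes, with chromosome Y and the segment left out, the SETα addback medians lay from 1.00 to 1.02 and from 1.00 to 1.09. On chromosome Y the median was above that of the segment in all 8 libraries. It was 3.40 and 3.26 in SETα addback and 11.8 and 11.5 in SETβ addback. With SETα overexpression it was 2.01 and 1.44, and with SETβ overexpression 3.83 and 3.90. SETβ addback replicate 1 ranged from 1.00 to 1.50 over the 18 chromosomes, which includes its segment value, and replicate 2 from 1.00 to 1.07. The 1.50 of replicate 1 is the rest of chromosome 6, and each of the others was at most 1.09. In SETα overexpression the 18 chromosomes ranged from 1.03 to 1.15 and from 1.00 to 1.15, below the 1.26 of the segment. In SETβ overexpression they ranged from 1.01 to 1.26 and from 1.03 to 1.32, which include the segment values. The 1.32 of replicate 2 is the rest of chromosome 6, and each of the others was at most 1.15. The bin from 114 Mb, outside the segment, was also high, at 2.07 and 1.71 in SETα addback. In SETβ addback it was 2.41 and 1.82, above the segment medians of 1.47 and 1.46. The part of this background in the segment's peak numbers was not tested.

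**Figure D5:**
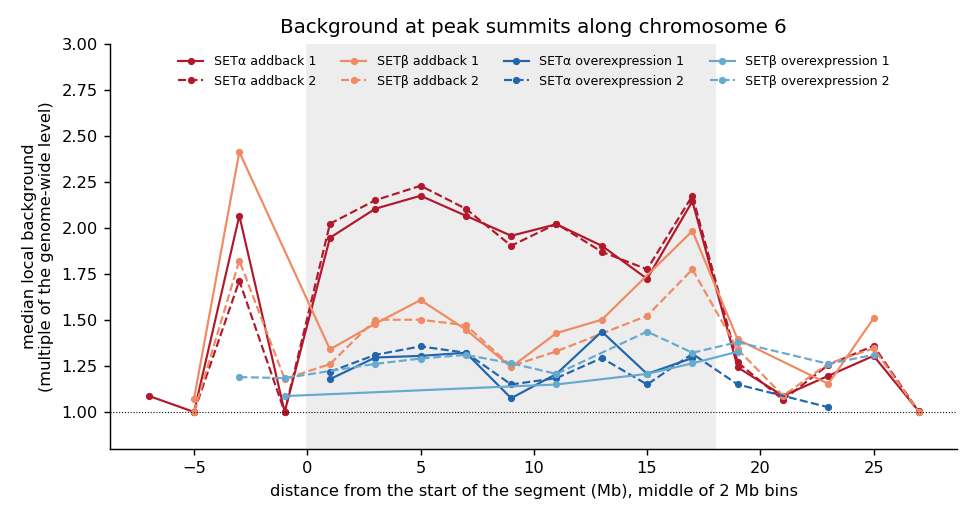
Median local background at peak summits, as a multiple of each library's genome-wide level, in bins of 2 Mb with at least 3 peaks, against distance from the start of the segment (shaded). Both SETα addback lines lie between 1.72 and 2.23 across the segment, and both SETα overexpression lines between 1.07 and 1.44.

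Pileup itself was compared where every library of a background had a peak. At 32 regions of the segment found in all 4 addback libraries, the median log2 pileup over the genome-wide level exceeded that at 739 regions elsewhere by 0.15 and 0.13 in SETα addback, and differed by −0.62 and −0.30 in SETβ addback. At 44 such regions on the rest of chromosome 6 the excess was larger, 1.02 and 0.84 in SETα addback and 0.77 and 0.74 in SETβ addback, with SETα again above SETβ. In the segment, SETα minus SETβ was 0.59, with a pooled SD of 0.16, and the groups did not overlap (exact two-sided permutation test, p = 0.333, the smallest possible). At 19 regions found in all 4 overexpression libraries the value was 0.15 and 0.40 with SETα and −0.11 and 0.034 with SETβ, against 190 elsewhere. At 10 such regions on the rest of chromosome 6 it was −0.15 and −0.022 with SETα and −0.027 and 0.017 with SETβ. Since the segment was chosen on SETα overexpression peaks, nothing is read from the overexpression values. DNA of the lines was not measured here, so HA signal and DNA copies of the segment cannot be told apart from these values.

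Depth was read from the same solution. In reads of the library itself, the genome-wide background level was 10.5 and 7.28 in SETα overexpression and 12.1 and 9.02 in SETβ overexpression, and 3.02, 2.08, 4.50 and 3.12 in the addback libraries. The part of depth in the segment's peak numbers was not tested. On the scaled pileup of the deposited peaks, where 1 read of a library counts 0.331 and 0.478 in SETα overexpression and 0.287 and 0.386 in SETβ overexpression, this level was 3.48 in all 4 of these libraries. Whether they share a control library is not given in the sources used here.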

How the data were processed

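HA ChIP-seq was measured in 10 mouse samples, of which the 8 doxycycline-treated ones have peak lists used here. Per the submitters' processing notes, Bowtie2, MACS2 and deepTools were used with GRCm38 and mm10. The role and version of each, the control library and any excluded regions are not given in the sources used here. The authors called peaks per library. Each deposited list gives a score, a fold enrichment ratio at the summit over the local background, a −log10 p and a −log10 q. The authors' replicate lists carry a scaled score and the smaller −log10 p. Read totals were not used, so depth was taken from the recovered background.

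Positions are 1-based. Genes and promoter sequences come from RefSeq, GRCm38.p6. Chromosomes 8 and 11 were not analysed here, and mitochondrial peaks were left out. A recurrent region is a union of peaks from both replicates that share at least 1 bp. A gene end is either end of a gene of any type. Pileup and background were solved from fold and −log10 p as a Poisson tail and rested on 0.02 reads of tolerance. On simulated lists of 3000 peaks, the pileup was right for 100% of the peaks with a single solution, and 200 of 200 planted overlaps were found. Tests were exact permutations over libraries. Gene-end share used 36 arrangements within strata. Alternatives were a −log10 q of at least 2, other windows, overlaps and bins, each replicate left out, and a replicate block. Regions named were the 10 recurrent ones with the highest smaller −log10 p and the 10 strongest in all 4 addback libraries. Genes named were the 10 with most recurrent regions, the 10 longest without a peak and members of 10 lists, of which 1 gene is not reported here. Members and lists were chosen with earlier results of these data known. Python 3.11.15, numpy 2.4.6, scipy 1.17.1 and pandas 2.3.3 were used.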

Additional observations from a re-analysis of the deposited data

How the results depend on the processing

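With peaks of a −log10 q of at least 2 only, the mean log2 density ratio of SETα overexpression was 7.80, recurrent regions fell to 45, recurrent regions met in addback (addback peaks filtered) to 11.3%, and genes with a recurrent region to 5.81%. Requiring 50% overlap of both peaks gave 931 regions, and summits inside an addback peak gave 12.7% met in addback. Counting windows of 1 kb around gene starts and ends gave 56.2% of genes. The mean Spearman rho with gene ends in bins of 0.5 Mb was 0.37 in SETα addback, 0.33 in SETβ addback and 0.30 in SETβ overexpression, and with bases covered by genes in bins of 1 Mb it was 0.64 in SETα addback, 0.61 in SETβ addback and 0.43 in SETα overexpression. Leaving out 1 replicate at a time gave mean log2 density ratios from 8.14 to 8.96, regions met in addback from 18.3% to 24.5%, the SET KO minus SET wild type gene-end share from 9.76 to 20.5 points, SETα minus SETβ from −19.6 to −8.81 points, and the SETα minus SETβ addback peak number from −0.13 to 0.34, which reversed to −0.13 without SETα addback replicate 2 and to −0.080 without SETβ addback replicate 2. The causes were not tested. The stricter q could not be run for the gene-end share, since SETβ overexpression replicate 1 then has 0 peaks. With the replicate block the values are the same by construction, 15.2 and −14.2 points and 0.10, with exact permutation p of 0.25, 0.125 and 1. Replicate numbers did not pair the libraries: the correlation of replicate differences between groups over 2357 bins of 1 Mb lay below 0.1 in all 6 pairs, for example −0.050 between the addback groups. The background ratio of SETα addback, 2.08, was 2.02 with the stricter q and 2.09 inside the run, 2 settings chosen after seeing the data. Most overexpression peaks lie near the caller's threshold, which limits statements on single weak regions.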
